A study of Mus musculus with 28 samples.

Results

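Olfactory receptor genes form the largest gene family of the mouse and lie in tandem arrays on many chromosomes. Each olfactory sensory neuron is known to express 1 of these genes while the others are silenced, and in that tissue the arrays carry H3K9me3 and H4K20me3, marks of constitutive heterochromatin. Polycomb repressive complex 2 writes another repressive mark, H3K27me3, and is known to favour CpG-rich sequence in mammalian cells. The histone variant macroH2A1.1 often lies in the same broad domains as H3K27me3. Fibroblasts are not an olfactory tissue. The data described here concern 2 large stretches that hold such arrays, on chromosome 2 from 85000001 to 90000000 and on chromosome 9 from 37500001 to 40000000 (mm9), cut into windows of 10 kb. These regions were chosen by their coordinates, with no measured value in the rule but with earlier results of these data known. They gave 500 windows on chromosome 2 and 250 on chromosome 9, or 750 of 265480 windows in all segmented chromosomes.

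Chromatin was measured in primary MEFs (fibroblasts grown from mouse embryos) of strain 129s2, taken at day 14.5 and used at passages 3 to 4. Wild-type (WT) and SirT7-/- (KO) cells were labelled NT or GS. Neither abbreviation is expanded in the labels, and the series title concerns glucose starvation. SIRT7 is a sirtuin, an enzyme that removes acyl groups from proteins with the help of NAD, and lies in the nucleus. Its ChIP comprised 2 WT libraries per treatment and none from KO cells, and 1 list of peaks stands for each treatment. H3K27me3 and macroH2A1.1 (mH2A1 in the sample names) were precipitated from 2 libraries each per genotype and treatment, and from these the authors built 4 segmentations, named here by genotype and treatment (WT-NT, KO-NT and so on). A segmentation gives every bin of 200 bp 1 of 4 states, U1 to U4. The sources used here do not say what each state stands for. U1 covers most of the genome and U2, U3 and U4 together are called marked below. The initial 3 Mb of chromosomes 2 and 9, which mm9 leaves unassembled, were U1 in all bins but 2 of 15000 on chromosome 9 in each KO segmentation, so U1 also takes in sequence without reads. In the tandem arrays, too, bins without the marks and bins where no reads were placed cannot be told apart, and the share of the arrays to which reads could be placed was not tested. Replicates were pooled by the authors, so no value has a replicate error, the read depth is unknown, and the comparisons below are descriptions without a test.

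Gene order showed how dense the arrays are. In the RefSeq annotation of a later build (GRCm38.p6), 287 of 1782 protein-coding genes on chromosome 2 and 130 of 1201 on chromosome 9 carried an Olfr symbol. Runs of neighbouring Olfr genes, with no other protein-coding gene between them, were long. On chromosome 2, 93 Olfr genes from Olfr996 to Olfr1126 lay between Fads2b and Pramel7, and 123 from Olfr153 to Olfr1274 lay between Pramel6 and Ptprj, 216 in all. On chromosome 9, 94 Olfr genes lay in 3 runs between Panx3 and Tmem225, of 40, 29 and 25 genes, parted by Vwa5a and by AW551984. A further 90 Olfr entries on chromosome 2 and 49 on chromosome 9 were pseudogenes or other entries that are not protein-coding. No annotation of mm9 was used here, so single genes were not placed on the windows and the label of the regions was not checked gene by gene.

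The sequence before Olfr genes, in the runs named above or outside them, was poor in CpG, the dinucleotide CG. RefSeq windows of 300 bases (250 before to 50 after the annotated start, GRCm38.p6) were at hand for 243 Olfr genes on chromosome 2 and 109 on chromosome 9. Their median was 1 CG on either chromosome, the highest count was 7 on chromosome 2 and 8 on chromosome 9, and 35.5% of the windows on each had none. The 31903 windows of genes outside the family had a median of 8 CG, 4.6% had none, and 44.8% had 10 or more, against 0.211% of all Olfr windows. Olfr windows were also poorer in G and C, with a median of 32.7% on chromosome 2 and 34% on chromosome 9, against 53.3% outside the family. The annotated start of many Olfr genes is the start codon and not a start of transcription: ATG stood at the start in 72.4% of Olfr windows and in 3.85% of the others. Olfr windows without that ATG also had a median of 1 CG, and other genes with it had a median of 2. As examples, the 250 bases before the start of the middle gene of the longest run on each chromosome, among those without ATG at the start, are shown 5′ to 3′ with CG in capitals (RefSeq, GRCm38.p6).
Olfr1208: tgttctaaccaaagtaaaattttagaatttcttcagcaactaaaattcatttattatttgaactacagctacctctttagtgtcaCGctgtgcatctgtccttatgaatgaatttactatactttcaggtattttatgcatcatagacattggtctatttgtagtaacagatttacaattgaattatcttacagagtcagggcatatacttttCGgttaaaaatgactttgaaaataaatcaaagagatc
Olfr25: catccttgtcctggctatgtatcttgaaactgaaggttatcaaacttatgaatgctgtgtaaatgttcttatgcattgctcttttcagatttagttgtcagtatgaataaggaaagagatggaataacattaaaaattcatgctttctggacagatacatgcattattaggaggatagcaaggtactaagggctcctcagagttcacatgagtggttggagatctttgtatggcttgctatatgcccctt
The stretch before Olfr1208, on chromosome 2, has 2 CG and that before Olfr25, on chromosome 9, has 0. CG reads the same on both strands.

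Both clusters were almost wholly U1 in all 4 segmentations, which may include sequence without placed reads. On chromosome 2 marked bins covered 1.28% (NT) and 1.42% (GS) of the cluster in WT cells, and 0.884% (NT) and 1.24% (GS) in KO cells. The rest of chromosome 2 was marked at 33.7, 33.9, 29.6 and 30.2% in the same order, 23.8 to 33.5 times as much. On chromosome 9 the cluster was marked at 1.47% (NT) and 3.22% (GS) in WT cells, and at 1.32% (NT) and 2.30% (GS) in KO cells. The rest of chromosome 9 was marked at 35.2, 35.1, 29.7 and 31.9%, 10.9 to 23.9 times as much. In each segmentation, then, the clusters sat far below their chromosomes, and the ratio was smallest on chromosome 9 in WT-GS.

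**Figure D1:**
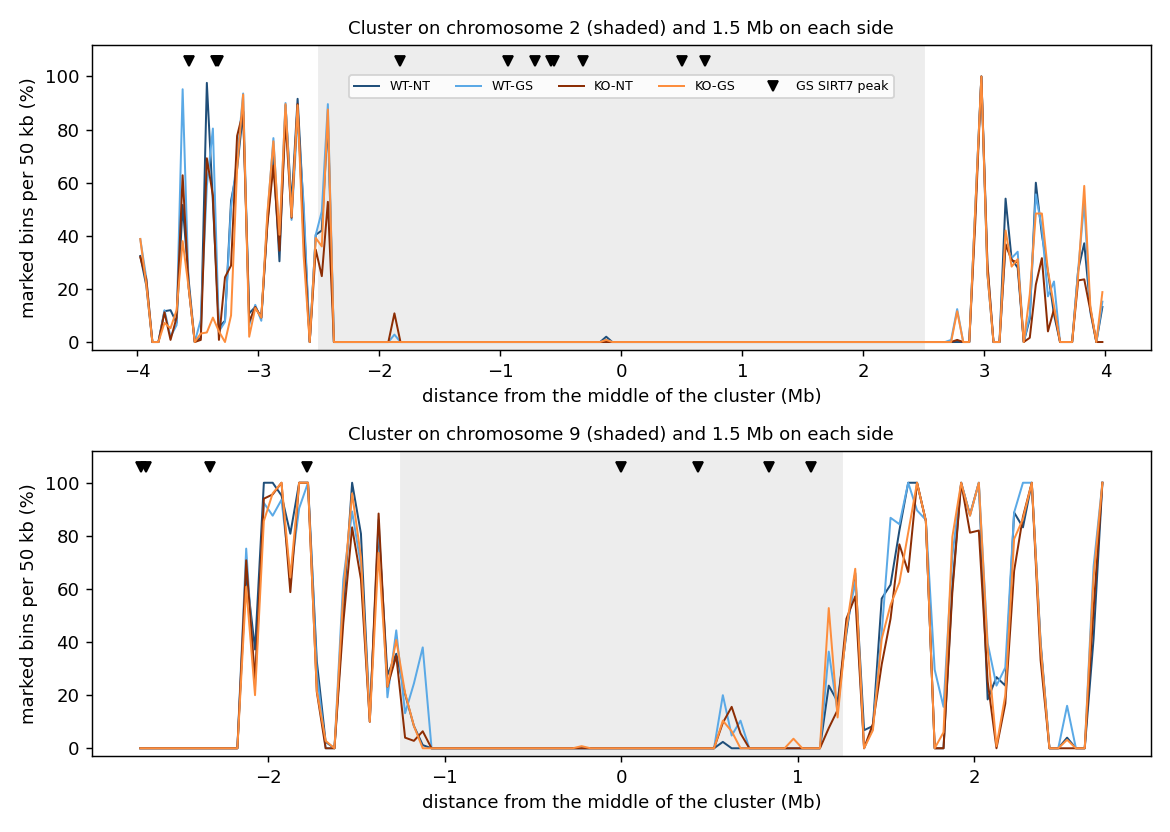
Share of marked bins (percent, per 50 kb) along each cluster (shaded) and 1.5 Mb on each side, by distance from the middle of the cluster, with 1 line per segmentation and black triangles at SIRT7 peaks of the GS list. Marked sequence lies on both sides of each cluster, though the 250 kb after the far border on chromosome 2 are nearly unmarked. The marked share drops to 0 over most of both clusters, while 8 GS peaks on chromosome 2 and 4 on chromosome 9 lie inside.

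Each of the 3 marked states was scarce. In WT-NT, U2 took 22.1% of the rest of chromosome 2 and 0.760% of the cluster, U3 9.17 and 0.500%, and U4 2.52 and 0.0160%, the last being 4 bins. On chromosome 9 the WT-NT values were 22.1 against 1.23% for U2, 10.2 against 0.208% for U3 and 2.86 against 0.0320% for U4, again 4 bins. KO-NT had 0 U4 bins among the 12500 bins of the chromosome 9 cluster and 1 U4 bin among the 25000 of the chromosome 2 cluster. U2 was the most common marked state in both clusters in every segmentation.

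Counted by windows, 10 of 500 windows on chromosome 2 held a marked bin in WT-NT and 12 of 250 on chromosome 9, or 2.93% of both together, where 40.1% of all windows on the autosomes and X did. In WT-GS the counts were 11 and 19 windows (background 40.9%), in KO-NT 10 and 12 (37.7%) and in KO-GS 10 and 15 (38.7%). Windows marked over more than 50% of their bins were as rare. In NT they numbered 6 and 3 for WT (background 29.1%) and 4 and 1 for KO (26.1%). In GS they numbered 6 and 8 for WT (29.5%) and 5 and 5 for KO (26.8%). The median window was marked at 0% in the clusters, and also at 0% over all windows, since fewer than 50% of all windows hold a mark. U1 in every bin of all 4 segmentations was found in 488 windows on chromosome 2 and 225 on chromosome 9, or 95.1% of the 750, against 50.3% of the rest of chromosome 2, 49.1% of the rest of chromosome 9 and 53.8% of all windows.

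Stretches of the same length gave the spread along each chromosome. The rest of chromosome 2, without its initial 3 Mb, was cut into 34 tiles of 5 Mb, whose marked share in WT-NT ran from 5.04 to 59.8% with a median of 35.5%. None of the 34 was as low as the cluster in any of the 4 segmentations. On chromosome 9, 46 tiles of 2.5 Mb ran from 0.272 to 78.9% in WT-NT with a median of 37.9%, and 2 of them were at or below the cluster in each segmentation. The 2 tiles lowest in WT-GS lay from 17500001 to 20000000, marked at 0.288%, and from 10000001 to 12500000, marked at 0.664%. Over the 19 autosomes, 4 to 12 of 465 tiles of 5 Mb were as low as the chromosome 2 cluster, depending on the segmentation, and 51 to 86 of 939 tiles of 2.5 Mb as low as the chromosome 9 cluster. Unmarked stretches of this size were thus uncommon but occurred elsewhere. The later annotation has further Olfr runs beyond those named above, among them 37 and 28 genes on chromosome 2 and 19 on chromosome 9. They were not placed on the tiles, so the rest of either chromosome may also hold olfactory receptor arrays.

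**Figure D2:**
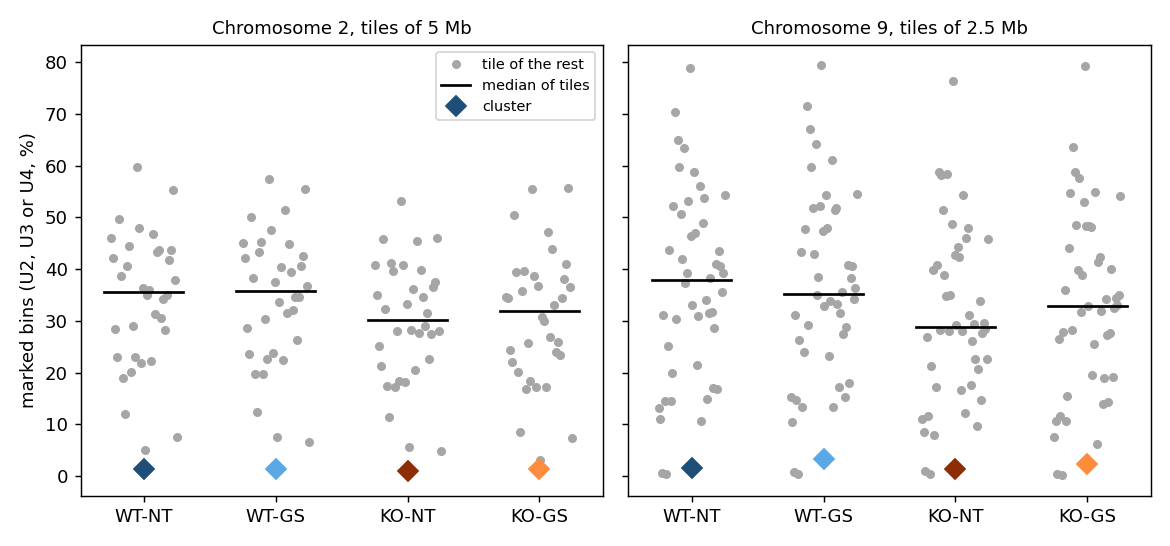
Marked share (percent of bins) of each cluster (coloured diamond) beside tiles of the same length on the rest of its chromosome (grey points, black line at their median), for the 4 segmentations. The chromosome 2 cluster lies below all 34 tiles and the chromosome 9 cluster below all but 2 of 46.

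Inside the chromosome 2 cluster nearly all marked sequence sat at the edge nearest to the centromere. The initial 10 windows, from 85000001 to 85100000, held 62.8 kb (NT) and 69.4 kb (GS) of marked sequence in WT, and 38.8 kb (NT) and 61.8 kb (GS) in KO. In the same order, the remaining 490 windows held 1, 1.8, 5.4 and 0.4 kb, in 2 windows. The mark at the edge was a block that ended at 85094800 in WT-NT, WT-GS and KO-GS and at 85094600 in KO-NT. In WT-GS it ran unbroken for 65.2 kb from 85029601, with 62.6% of its bins U2, 35.6% U3 and 1.84% U4. In WT-NT the same block was 2 stretches of 44.6 and 17.6 kb, and in KO-GS 2 stretches of 14.4 and 43.8 kb. KO-NT had the most broken block, with a longest stretch of 11.2 kb.

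The 2 marked windows deeper in the chromosome 2 cluster differed between segmentations. The window from 85640001 to 85650000 was marked at 54% in KO-NT, 14% in WT-GS and 0% in WT-NT and KO-GS. The window from 87360001 to 87370000 was marked at 10% in WT-NT, 4% in WT-GS and KO-GS and 0% in KO-NT, where the WT-NT mark was a stretch of 1000 bp of U3 from 87365801. Between and beyond these windows lay long stretches that were U1 in all 4 segmentations. The longest ran from 87366801 to 90246200, 2.88 Mb, of which 2.63 Mb lay in the cluster, and it ranked at place 2 of 2595 such stretches on chromosome 2 and at place 10 of 35102 on the autosomes. The next, from 85649401 to 87365800, measured 1.72 Mb and ranked at place 4 on the chromosome.

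The far border of the chromosome 2 region was no border of the unmarked sequence. The 250 kb after it were still nearly empty, and marks returned in the step from 90250001 to 90500000, at 29.3 to 32.6%. The megabase before the cluster was marked at 33.7 to 43.8% over the 4 segmentations and the megabase after it at 16.4 to 20.2%. On chromosome 9 both flanks were richly marked, at 50.8 to 55.2% before and 47.8 to 59.7% after.

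Marks in the chromosome 9 cluster fell into 3 patches, which were noticed in the values. The initial patch, from 37530001 to 37650000, held 15 kb (NT) and 37.8 kb (GS) of marked sequence in WT, and 6.6 kb (NT) and 14.6 kb (GS) in KO. The middle patch, from 39310001 to 39420000, held 1.20, 17.6, 15.4 and 8.40 kb. The distal patch, from 39900001 to 40000000, held 20.6, 25, 11 and 32.2 kb. Outside them were 2 windows with a mark in KO-GS alone, from 38510001 to 38520000 at 4% and from 39710001 to 39720000 at 18%. The longest stretch U1 in all 4 was 0.864 Mb, from 37650001 to 38513600, at place 6 of 1865 on chromosome 9.

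The patches on chromosome 9 consisted mostly of U2. The longest marked stretch in WT-GS, 18.2 kb from 39905601, was U2 throughout, and so were the 15.8 kb from 37606801 and the 10.0 kb from 39314601. In WT-NT the longest were 10.2 kb of U2 from 37539201, 8.80 kb of mixed states (59.1% U3) from 39989801 and 6.00 kb of U2 from 39905801. KO-GS had the longest stretch of the cluster, 26.4 kb from 39906001 to 39932400, 99.2% U2. KO-NT had short stretches, of 7.40 kb (U2) from 39376001, 7.20 kb (U3) from 39988401 and 4.80 kb (U2) from 39320401.

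**Figure D3:**
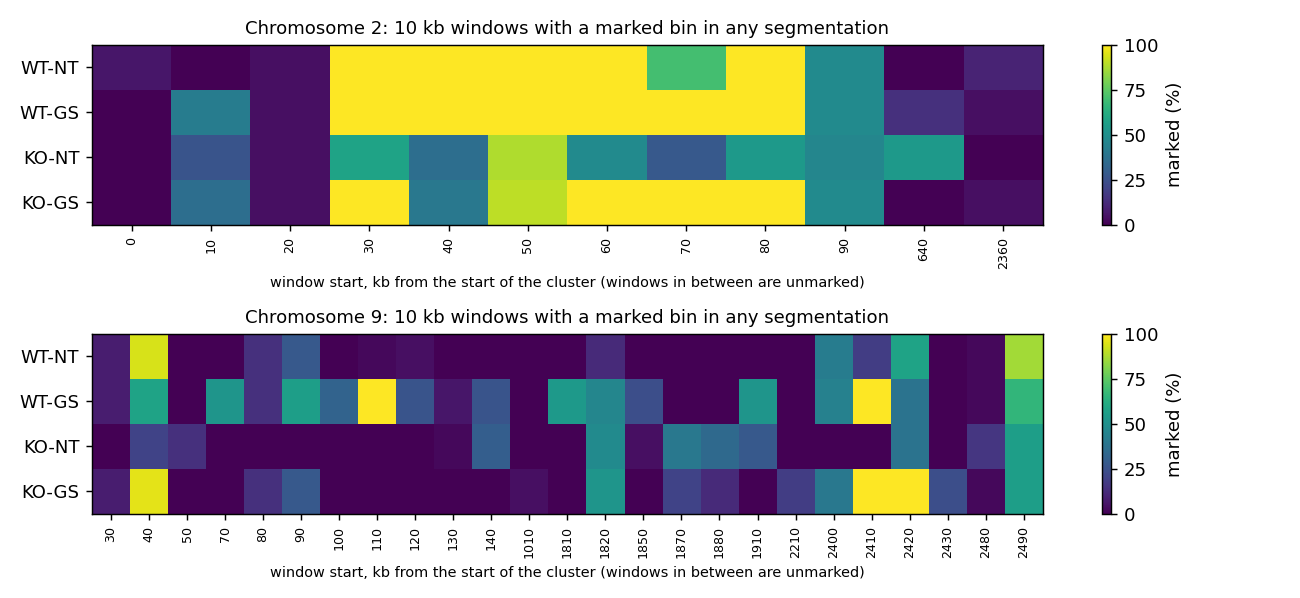
Marked share (percent, colour) in the 4 segmentations of each 10 kb window that held a marked bin in any of them, 12 on chromosome 2 and 25 on chromosome 9, by distance of the window from the start of the cluster. On chromosome 2 the block at the edge recurs in all 4 rows, while on chromosome 9 most windows are marked in some rows and dark in others.

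The marks of the 2 clusters recurred to different degrees. On chromosome 2, 8 of the 12 windows with a mark were marked in all 4 segmentations, and of 383 bins marked in any, 164 (42.8%) were marked in all 4 and 31 (8.09%) in 1. On chromosome 9, 5 of 25 windows were marked in all 4, and of 547 bins marked in any, 38 (6.95%) were marked in all 4 and 256 (46.8%) in 1. In the rest of chromosomes 2 and 9 the share marked in all 4 was 62.9 and 63.0%, and the share marked in 1 was 12.6 and 12%. The few marked bins of the chromosome 9 cluster therefore differed between segmentations far more often than the pooled marked bins of the rest of that chromosome. Single tiles were not compared in this way. Without replicates, a difference between conditions and imprecision of each segmentation cannot be told apart.

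GS and NT segmentations differed at few bins of the clusters, nearly all of which were U1 in both, but at many of the bins that held a mark. On chromosome 2, 0.360% of bins differed in WT and 0.724% in KO, against 10.2 and 11.5% of the rest of the chromosome. On chromosome 9 it was 2.5% in WT and 2.19% in KO, against 11.0 and 12.2%. By windows, 8 of 500 on chromosome 2 and 16 of 250 on chromosome 9 had a differing bin in WT (background 36.5%), and 10 and 20 in KO (background 36.5%). A region with so few marks cannot differ at many of its bins. Among bins marked in either treatment, the share that differed on chromosome 2 was 24.9% in WT and 51.0% in KO, against 27.3 and 33.6% in the rest. On chromosome 9 it was 70.2% in WT and 77.0% in KO, against 28.3 and 34.6%. Per marked bin, then, the chromosome 9 cluster differed more often than the pooled rest in both genotypes. The chromosome 2 cluster did so in KO and differed slightly less often in WT. This share was not computed for tiles. The chromosome 9 tile from 17500001 was marked in WT at 0.272% (NT) and 0.288% (GS), and 0.312% of its bins differed. For that from 10000001 the values were 0.472, 0.664 and 0.512%. Many of the few marked bins of these tiles thus differed too. Whether sparsely marked sequence elsewhere differs as often as the cluster was not tested.

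Over the regions as given, GS had more marked sequence than NT in both genotypes. With the outermost 250 kb left out on each side, this direction held in WT and turned in KO, where the marked share was 0.120% in NT and 0.00889% in GS on chromosome 2, and 0.770% in NT and 0.530% in GS on chromosome 9. On chromosome 2, 43 bins gained a mark in GS and 6 lost one in WT, and 134 gained and 44 lost in KO. On chromosome 9, 262 gained and 44 lost in WT, and 191 gained and 69 lost in KO. Most of the gain on chromosome 9 was from U1 to U2, at 260 bins in WT and 188 in KO. The marked share of the rest of chromosome 9 moved by -0.0729 percentage points in WT and 2.12 in KO, beside 1.74 and 0.976 in the cluster. On chromosome 2 the differences were 0.148 in WT and 0.360 in KO for the cluster, and 0.203 and 0.571 for the rest. Windows with a higher marked share in GS numbered 3 on chromosome 2 and 13 on chromosome 9 in WT (background 12.2%), with 2 and 3 lower (11.1%). In KO they numbered 9 and 11 (background 14.9%), with 1 and 8 lower (11.1%).

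Of the windows that differed most between treatments, all but 1 lay in the initial 100 kb of the chromosome 2 cluster or the patches of chromosome 9, the exception being the window from 85640001. In WT the largest gain was in the window from 37610001 to 37620000 on chromosome 9, marked at 2% in NT and 100% in GS. In KO that window was at 0% in both treatments. In KO the largest gain was in the window from 39910001 to 39920000, from 0 to 100%, where WT also had more in GS (18 and 100%). The largest losses on chromosome 9 were in the window from 37540001, from 94 to 58% in WT, where KO had 20 and 96%, and in the window from 37640001, from 30 to 0% in KO, where WT had 0 and 26%. On chromosome 2 the largest gains were in the window from 85010001, from 0 to 42% in WT, and in the window from 85070001, from 28 to 100% in KO, where WT had 70 and 100%. The largest losses there were from 6 to 0% in WT, in the window from 85000001, and from 54 to 0% in KO, in the window from 85640001. The direction thus agreed between genotypes in some of these windows and was opposite in the windows from 37540001, 37640001 and 85640001.

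Over the regions as given, KO cells had less marked sequence in the clusters than WT cells in both treatments, as in the rest of these chromosomes. With the outermost 250 kb left out on each side, this held in GS and turned in NT, where KO had 0.120% and WT 0.0222% on chromosome 2, and KO had 0.770% and WT 0.0600% on chromosome 9. In NT, KO minus WT was -0.392 percentage points on chromosome 2 and -0.152 on chromosome 9, against -4.10 and -5.48 in the rest. In GS it was -0.180 and -0.920, against -3.73 and -3.28. The share of bins that differed was 0.720 and 1.89% in NT, and 0.332 and 2.66% in GS, for chromosomes 2 and 9. Among bins marked in either genotype it was 50.1% in NT and 23.2% in GS on chromosome 2, against 32.3 and 29.0% in the rest, and 81.1 and 65.6% on chromosome 9, against 34.8 and 29.6%. In NT, 9 windows on chromosome 2 had a lower marked share in KO and 2 a higher one, and on chromosome 9 10 were lower and 9 higher (background 17.2% lower and 8.79% higher). In GS, 4 windows on chromosome 2 were lower and 0 higher, and on chromosome 9 12 were lower and 8 higher (background 15.1% lower and 9.43% higher). The share of windows with any differing bin was 11 of 500 and 19 of 250 in NT (background 36.6%) and 8 and 20 in GS (background 37%).

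The largest single differences between genotypes were again in the edge block and the patches, but for the window from 85640001. In the window from 85040001 on chromosome 2, both WT segmentations were marked at 100%, KO-NT at 36% and KO-GS at 40%. It gave the largest loss on chromosome 2 in both treatments. On chromosome 9 the largest loss in GS was in the window from 37610001, from 100% in WT to 0% in KO, and in NT in the window from 37540001, from 94 to 20%. The largest gains on chromosome 9 were from 39370001, from 0% in WT-NT to 40% in KO-NT, and from 39920001, from 38% in WT-GS to 100% in KO-GS. The largest gain on chromosome 2 was in NT, in the window from 85640001 (0 to 54%), and no window there was higher in KO in GS.

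**Figure D4:**
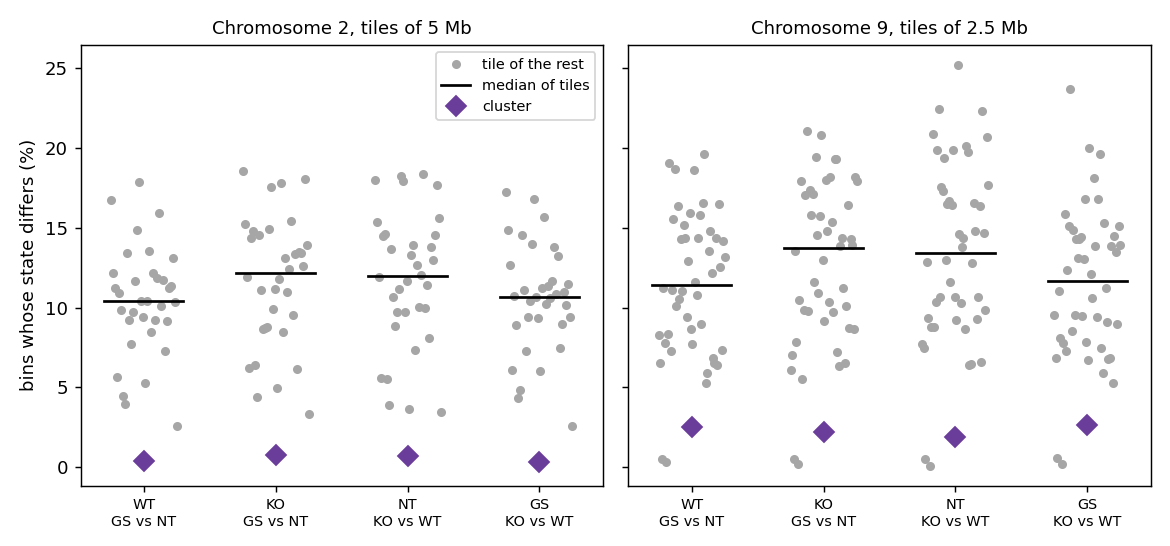
Share of bins whose state differs (percent) between treatments within each genotype and between genotypes within each treatment, for the clusters (purple diamonds) and for tiles of the same length on the rest of their chromosomes (grey points, black line at the median). The clusters differ at 0.332 to 0.724% of bins on chromosome 2 and 1.89 to 2.66% on chromosome 9, where the tile medians lie between 10.4 and 13.7%, and the low share follows from the few marked bins in the clusters.

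SIRT7 peaks were present in the clusters in the GS list and absent in the NT list. The GS list, of 2671 peaks, had 8 in the chromosome 2 cluster and 4 in the chromosome 9 cluster. Each was the sole peak of its window, so 12 of 750 windows (1.60%) held a peak midpoint, against a background of 0.97% of all windows. The NT list, of 90 peaks, had 0 in either cluster (background 0.0333% of windows), which allows up to 0.600 per Mb on chromosome 2 and 1.20 on chromosome 9 by the limit of 3 counts, and up to 0.738 and 1.48 per Mb by the upper end of the exact Poisson interval. The rest of these chromosomes had 8 NT peaks, 0.0268 per Mb, far below these limits, so a difference was not detectable.

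The density of GS peaks was 1.60 per Mb in both clusters. Its exact Poisson 95% interval, which covers counting error only, was 0.691 to 3.15 on chromosome 2 and 0.436 to 4.10 on chromosome 9. The rest of chromosome 2 had 138 peaks, 0.781 per Mb (interval 0.656 to 0.922), and the rest of chromosome 9 had 90, 0.740 per Mb (interval 0.595 to 0.910). With both clusters joined the interval was 0.827 to 2.79, and for the rest of both chromosomes it was 0.668 to 0.870 around 0.764. For each cluster alone the value of the rest lay inside the cluster's interval. With both joined the 2 intervals overlapped, while the value of the rest lay below the cluster interval. All autosomes together had 0.919 GS peaks per Mb, which lay inside the joined cluster interval. Per Mb of U1 in WT-GS, the clusters had 1.63 peaks (interval 0.844 to 2.85) and the rest 0.997 (interval 0.862 to 1.15). Tiles gave a like picture: 5 of 34 tiles of chromosome 2 had more than 8 GS peaks, around a median of 3, and 5 of 46 tiles of chromosome 9 had more than 4, around a median of 1. The tiles least marked in WT-GS, at 6.56, 7.59 and 12.4% on chromosome 2, held 2, 10 and 6 GS peaks. On chromosome 9 those at 0.288, 0.664 and 10.5% held 4, 6 and 8, so sparsely marked tiles there had as many peaks as the cluster or more. No test of the difference in density was run.

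**Figure D5:**
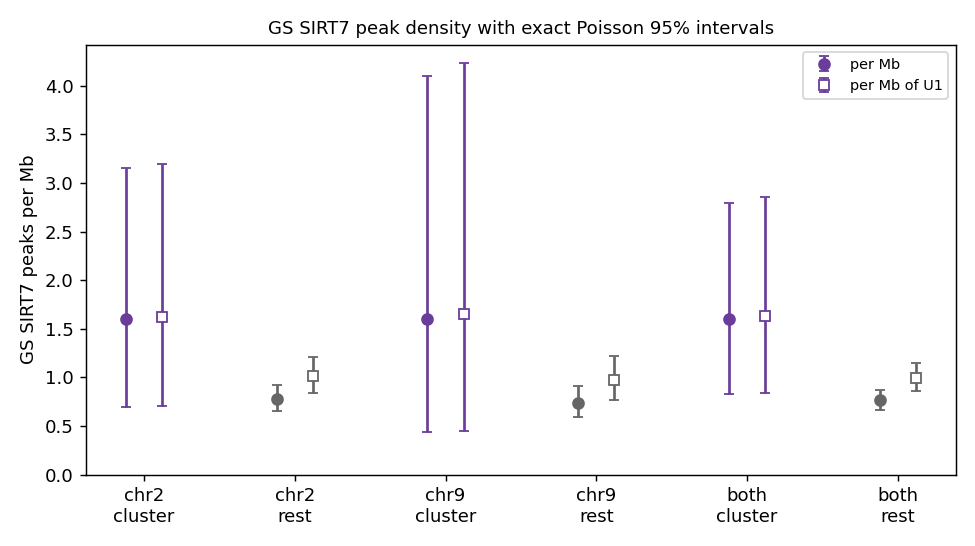
GS SIRT7 peaks per Mb (filled circles) and per Mb of U1 in WT-GS (open squares) in the clusters (purple) and in the rest of chromosomes 2 and 9 (grey), with exact Poisson 95% intervals. The cluster value of 1.60 per Mb has wide intervals that overlap those of the rest.

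The peaks on chromosome 2 were short and stood apart from one another. By the score that the authors deposited with each peak, a whole number from 537 to 1000 in this list, the highest 5 lay from 87186478 to 87187070 (score 802, place 240 of 2671), from 86562597 to 86563338 (718), from 88003547 to 88004156 (689), from 85674196 to 85675308 (666) and from 86789761 to 86791575 (604). The 8 peaks measured 593 to 1815 bp with a median of 749 bp, and those in the rest of chromosome 2 had a median of 1151 bp. Neighbouring peak starts were 21.8 to 888 kb apart, with a median of 227 kb. The 100 kb window with the most peaks, from 86900001 to 87000000, held 2, and 43 of 50 such windows held none.

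The 4 peaks on chromosome 9 included a long one at the distal side. It ran from 39821872 to 39826626, 4755 bp, with the highest score of the 4 (796, place 256). The others lay from 39585648 to 39587652 (score 716), from 38748058 to 38749377 (594) and from 39184866 to 39185394 (584). Each lay in a 100 kb window of its own. Median scores in the clusters and in the rest of their chromosomes were close, at 635 and 618 on chromosome 2 and 655 and 628.5 on chromosome 9.

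All 12 peaks were U1 over their whole length in all 4 segmentations (100%, Wilson 95% interval 75.8 to 100%), against 176 of 228 (77.2%, interval 71.3 to 82.2%) in the rest of these chromosomes. Of all cluster windows, 95.1% were likewise U1 throughout, so little of the clusters could hold a marked peak. The distance from the peaks to the nearest marked bin in WT-GS was 27 to 827 kb, with a median of 510 kb on chromosome 2 and 149 kb on chromosome 9, where peaks in the rest had medians of 22.9 and 52.1 kb. Most positions in the clusters lie in long unmarked stretches, and their distances were not measured. The contrast can thus not be read as a trait of the peaks. The nearest pair in the chromosome 2 cluster was the peak from 85674196 and the mark in the window from 85640001, 27 kb apart in WT-GS and 24.8 kb in KO-NT. In WT-NT and KO-GS, where that window was unmarked, the same peak lay 579 kb from the nearest mark. No marked bin inside either cluster coincided with a SIRT7 peak.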

How the data were processed

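ChIP-seq libraries of SIRT7, H3K27me3 and mH2A1 with inputs were grouped by genotype, treatment and target from the titles in the labels, 20 ChIP and 8 input libraries in all. Per the submitters' processing notes, MACS 1.4.2, Bowtie, deepTools 2.4.2, SAMtools 0.1.19, Trimmomatic 0.36 and FastQC 0.11.3 were used and mm9 was a build. No roles are given. The authors deposited 1 segmentation per genotype and treatment and 1 SIRT7 peak list per treatment, each tied by the labels to both replicates. The score in the peak lists was deposited by the authors, and no source used here gives its computation. The segmentation tool and its model are not given either, nor is it given whether a state was defined alike in all 4.

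Segments were expanded into bins of 200 bp and windows of 10 kb, and a peak was placed by its midpoint. The background counts windows of chromosomes 1 to 19 and X. Tiles were laid from the start of each chromosome, without those touching the initial 3 Mb or a cluster. Distances were measured from peak edges to the nearest marked bin. Intervals are 95%, Wilson for shares and exact Poisson for peak numbers. The functions were tested on simulated data with known shares. Python 3.11.15, numpy 2.4.6, pandas 2.3.3 and scipy 1.17.1 were used. Regions and lists were chosen with earlier results of these data known. Named regions were, per cluster, the 3 longest marked stretches of each segmentation, the longest stretch unmarked in all 4, the 5 GS peaks of highest score and the windows with the largest difference in each direction per comparison. The 3 patches, single marked windows and other peaks were added after their values were seen.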

Additional observations from a re-analysis of the deposited data

Results flagged for a closer look

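One step of 250 kb in the chromosome 9 cluster, from 39250001 to 39500000, changed in opposite directions between treatments in WT and KO. In WT its marked share was 0.480% in NT and 7.04% in GS, a difference of 6.56 percentage points, and in KO 6.16% in NT and 3.36% in GS, a difference of -2.80. Of the 30 steps in both clusters, 8 held any mark, and this one alone moved by at least 1 percentage point in opposite directions. The difference between the genotypes was not tested, since each value comes from 1 segmentation. The KO segmentations also carry the marks from 39370001 to 39390000, at 34 to 40% of these windows in KO-NT and 12 to 20% in KO-GS, which both WT segmentations lack.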

How the results depend on the processing

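The borders of the regions set how much mark was counted. With the outermost 250 kb left out on each side, the marked share of the chromosome 2 cluster was 0.0222% (NT) and 0.0400% (GS) in WT, and 0.120% (NT) and 0.00889% (GS) in KO. That of the chromosome 9 cluster was 0.0600% (NT) and 0.880% (GS) in WT, and 0.770% (NT) and 0.530% (GS) in KO. On both chromosomes, GS above NT in KO and KO below WT in NT thus turned, while GS above NT in WT and KO below WT in GS held. Widened by 250 kb, the shares were 3.28, 3.33, 2.71 and 3.02% on chromosome 2 and 8.21, 9.14, 7.21 and 8.25% on chromosome 9, with WT before KO and NT before GS. Bins that differed between treatments, with the outermost 250 kb left out, came to 0.0444% in WT and 0.129% in KO on chromosome 2 and 0.920 and 0.500% on chromosome 9. Windows marked over 50%, in place of any mark, numbered 6, 6, 4 and 5 on chromosome 2 and 3, 8, 1 and 5 on chromosome 9. Without its initial 3 Mb, the rest of chromosome 9 was marked at 36.1% in WT-NT and 36.03% in WT-GS. Of 78 alternatives, 49, among them bins of 1 kb, joined short segments and all those for peaks, stayed within the interval of the value as given, and 29 moved. For shares this was a Wilson interval over the number of 10 kb windows, counted as if independent. Neighbouring windows share segments, so that interval served only as a limit for sorting and measures no error. Counts of windows marked over 50% were sorted by their ratio to the counts with any mark, not by an interval. All of these counts are among the 29 that moved. Clusters were below the rest of their chromosome in 52 of 52 alternatives for shares, and GS peak density was above it in 10 of 10. These alternatives recount the same segments and peaks, so the tallies are no independent support. The low share of bins that differ follows from the few marked bins. Leaving out peaks over 5 kb and placing peaks by any overlap left the density at 1.60 per Mb in both clusters. No paired analysis was possible because each segmentation and list pools both replicates; for the same reason no replicate could be left out. The read depth is unknown, and what it limits was not tested. The number of GS peaks in the clusters, 12, sets the width of their intervals.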
